A study of Homo sapiens with 6 samples.

Results

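The transcripts of 10 genes for IL6-type cytokines, colony-stimulating factors, IL24 and partners of their signalling were followed in MDA-MB-231 cells after silencing of NEK2. These were the ligand genes IL6, IL11, LIF, IL24, CSF1, CSF2 and CSF3, the receptor genes IL6ST and OSMR, and SOCS3, which encodes a feedback inhibitor. They were found by their symbols in the deposited table of normalized gene counts. Each symbol had 1 entry among the 74852 listed, so that no choice between entries was made. All 10 passed the minimum mean of 10 normalized counts that defined the 18717 tested genes. CSF3 passed it through si-CTRL alone, with means of 75.5 in si-CTRL and 1.26 in si-NEK2. The 10 genes were picked with earlier results from the same libraries known, and their counts are given as descriptions beside the share of all tested genes.

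MDA-MB-231 is an established triple-negative breast cancer (TNBC) cell line of mesenchymal character. In the si-CTRL group the cells received siRNAs with no target, in the si-NEK2 group siRNAs against the mitotic kinase NEK2, each in 2 lipid transfections, and all cells were harvested 24 h after the second. Polyadenylated RNA was sequenced from 3 libraries per group, and no stimulus or drug was added to any of them. Nothing in the labels says that the 3 libraries of a group came from separate cultures, so p-values measure the spread between these libraries, which may be technical. The sources do not state whether both groups were prepared in 1 batch, so batch and silencing cannot be told apart, and without another reagent the loss of NEK2 cannot be told apart from off-target effects of the siRNAs. The cells are 1 line, and their transcripts stand for no other TNBC line.

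IL6-type cytokines bind a receptor of their own (IL6R, IL11RA, LIFR or OSMR) that pairs with gp130, the shared signal-transducing chain encoded by IL6ST. The paired chains activate JAK kinases, which phosphorylate STAT3, and STAT3 induces SOCS3, which binds gp130 and JAKs and stops the signal. Colony-stimulating factors direct the growth of macrophages (CSF1), granulocytes and macrophages (CSF2, also called GM-CSF) and neutrophilic granulocytes (CSF3, also called G-CSF), and IL24 is a secreted cytokine of the IL10 family that signals through IL20 receptor chains. Mesenchymal breast cancer cells are known to secrete several of these proteins, IL6 among them, and many cytokine mRNAs are short-lived because proteins bind AU-rich elements in their 3′ untranslated region (3′UTR).

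The libraries held 52625492 to 87454509 reads assigned to genes, and 1 read was worth 0.818 to 1.25 normalized counts. NEK2 (GSHG0002936) was measured at 3702, 3323 and 3290 normalized counts in si-CTRL and at 284, 362 and 388 in si-NEK2, a log2 fold change of -3.32, so that every library went with its label. Si-CTRL replicate 1 stood apart from the other si-CTRL libraries: counts differed by 75.8 and 80.2 times the sampling variance (chi-square per degree of freedom) from theirs, against 12.5 between those libraries. All 5 mesenchymal markers were detected, with summed levels of 390701 to 484835 normalized counts in si-CTRL and 362389 to 393849 in si-NEK2, and of these ZEB1 (log2 fold change -0.82) and CD44 (-0.76) were regulated downward. Of 6 luminal or epithelial markers, 4 (ESR1, PGR, CDH1 and EPCAM) had means under 10, and the sums were 17180 to 19285 in si-CTRL and 22575 to 23600 in si-NEK2, nearly all of it KRT8 (means of 17463 and 22587), while GATA3 had means of 427 and 321. Leukocyte markers, which would accompany blood cells as another source of cytokines, summed to 8.75 to 19.4 in si-CTRL and 18.1 to 34.4 in si-NEK2. Of the 5, 4 were under a mean of 10, with CD3E at 0 in all si-CTRL libraries. PTPRC averaged 7.25 in si-CTRL and 12.9 in si-NEK2, where replicate 1 had 25.4. Fibroblast markers summed to 146613 to 182214 and 135000 to 154590, with COL1A1 nearly all of it, COL1A2 regulated upward (0.92) and DCN and LUM under a mean of 10. PDGFRB had means of 710 in si-CTRL and 753 in si-NEK2 and was not regulated. The part of these marker differences in the values below was not tested.

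Most of these cytokine transcripts were lower after silencing of NEK2, while CSF1 was higher and OSMR was not regulated. Following the study, a gene was counted as regulated where limma gave p of at most 0.05 and the groups differed 1.5-fold or more. IL24 is left out of these counts and of the median, for a reason given with its values. Of the other 9 genes, 7 were regulated downward, against 14.3% of all tested genes, and 1 upward, against 8.23%. The same numbers were regulated when the adjusted p was used in place of p, where 13.1% and 7.47% of all tested genes were. With a fold of at least 2, 5 of the 9 were lower, against 6.59% of all tested genes, and 0 higher, against 2.15%. All 3 si-NEK2 libraries lay below all 3 si-CTRL libraries for 7 of the 9 genes, against 26.9% of all tested genes. For 1 gene they lay above, against 28.2%. The median log2 fold change of the 9 genes was -1.58, and that of all tested genes was 0.01. CSF3, which met the minimum mean through si-CTRL alone, is among the decreases in each of these counts. The sequenced RNA came from whole cultures, so that fewer cells expressing a gene and less RNA per cell cannot be told apart.

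**Figure D1:**
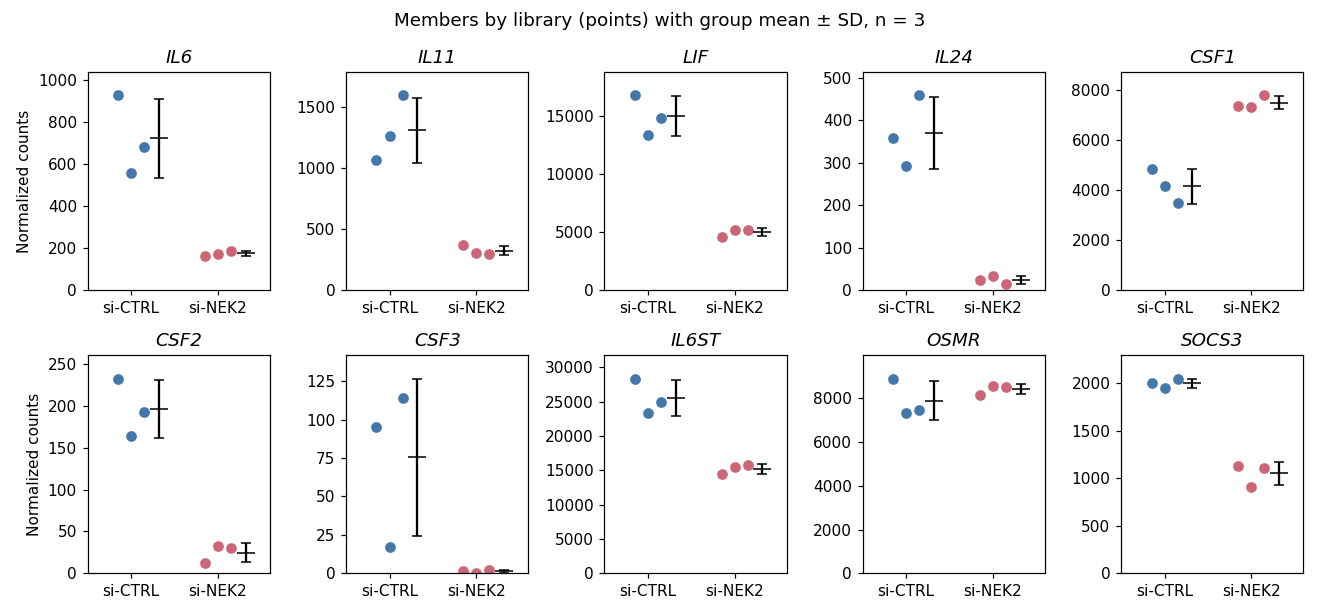
Normalized counts (vertical axis of each panel, from 0) of the 10 genes in the 3 si-CTRL (blue) and 3 si-NEK2 (red) libraries, 1 point per library in the order of the replicate numbers, with the group mean as a short line and the SD as the bar beside the points. The groups are separated in every panel except that of OSMR, and in the panel of CSF1 all si-NEK2 libraries lie above all si-CTRL libraries.

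AU-rich elements were looked up first, because they are the sequence feature for which cytokine transcripts are best known. The core pentamer ATTTA, read on the transcript strand only, was counted in the longest annotated 3′UTR of each gene (GENCODE v29, GRCh38). In all, 67.9% of 18944 genes held at least 1. The 3′UTR of IL6, the prototype of the family, held 6 matches in 429 bases, and 0.984% of genes with a 3′UTR of similar length (within 20%) held as many. That of CSF2 held 8 in 318 bases, a number that 0.138% of similar genes reached, and CSF3 held 7 in 854 bases, reached by 2.13%. IL11 held 9 in 1618 bases (5.92% of similar genes), and OSMR, the receptor gene that was not regulated, held 8 in 2197 bases (22.6%). The remaining genes lay well inside the distribution of similar genes: 4 matches in 2154 bases in CSF1 (56.95%), 7 in 3204 in LIF (49.95%), 4 in 1640 in SOCS3 (41.8%), 3 in 1154 in IL24 (38.9%) and 26 in 7641 in IL6ST (18.6%). The nonamer TTATTTATT, a longer form of the element that 8.23% of all genes carried, occurred 6 times in IL11, 3 times in CSF2, and 2 times each in LIF and OSMR, overlapping copies and the pentamers within them included, and was not matched in the other 6 genes. The densest 30-base windows of 5 genes are shown on the transcript strand with every ATTTA in capitals. They lie at chr7:22731741-22731770 on the plus strand for IL6, chr19:55365943-55365972 on the minus strand for IL11, chr5:132076076-132076105 on the plus strand for CSF2, chr17:40016979-40017008 on the plus strand for CSF3 and chr5:38935442-38935471 on the plus strand for OSMR.
IL6: agttaATTTAtgtaagtcatATTTAtattt
IL11: ccagatcttATTTATTTATTTAtttcagta
CSF2: aaaatATTTATTTATTTATTTATTTAagtt
CSF3: atgtATTTAtctctATTTAatATTTAtgtc
OSMR: attgtcagcATTTATTTATTTAtgtacctt
The windows of CSF2, IL11 and OSMR share uninterrupted runs of overlapping pentamers, whereas those of IL6 and CSF3 hold separate ones. No decay of these mRNAs was measured.

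Promoters from RefSeq (GRCh38.p14, from 250 bases before to 50 after the start) were at hand for 7 of the 10 genes in 8 records, SOCS3 having 2. LIF, CSF1 and CSF3 had no entry. They were searched on both strands for an NF-kB motif (GGGA, any base, TTTCC; held by 0.558% of 35114 promoters), an AP-1 motif (TGANTCA; 7.71%), a C/EBP motif (TTNNGCAA; 10.46%) and a STAT motif (TTCNNNGAA; 7.66%). The promoter of IL6, chr7:22726950-22727249 on the plus strand, held an NF-kB match at -73 and a C/EBP match at -155, positions being those of the first matched base from the start. That of IL11, chr19:55370414-55370713 on the minus strand, held an AP-1 match at -96. CSF2, chr5:132073539-132073838 on the plus strand, held a STAT match at -190, and OSMR, chr5:38845762-38846061 on the plus strand, held a C/EBP match at -73 and an AP-1 match at 4. None of the 4 motifs was matched in these windows of IL24, IL6ST and SOCS3, and no binding was measured here. The SOCS3 windows lie at chr17:78360876-78361175 and chr17:78359618-78359917 on the minus strand. They may not hold the start of the SOCS3 gene as listed on hg19, so the missing matches say nothing about the promoter at that start. The matched letters are in capitals in the promoters of IL6 and IL11, which fell to a similar share of their si-CTRL level, and of OSMR.
IL6: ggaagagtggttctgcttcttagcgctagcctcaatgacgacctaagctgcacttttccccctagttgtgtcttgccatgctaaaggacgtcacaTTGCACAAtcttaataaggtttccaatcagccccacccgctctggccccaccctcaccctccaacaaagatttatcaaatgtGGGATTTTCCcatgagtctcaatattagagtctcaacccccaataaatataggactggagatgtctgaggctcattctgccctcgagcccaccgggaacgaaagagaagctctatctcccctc
IL11: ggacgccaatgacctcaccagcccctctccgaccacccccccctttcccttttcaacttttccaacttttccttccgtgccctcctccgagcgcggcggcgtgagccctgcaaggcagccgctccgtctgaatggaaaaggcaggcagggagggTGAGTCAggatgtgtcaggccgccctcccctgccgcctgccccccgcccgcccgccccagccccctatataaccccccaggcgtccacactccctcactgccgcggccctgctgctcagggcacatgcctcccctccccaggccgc
OSMR: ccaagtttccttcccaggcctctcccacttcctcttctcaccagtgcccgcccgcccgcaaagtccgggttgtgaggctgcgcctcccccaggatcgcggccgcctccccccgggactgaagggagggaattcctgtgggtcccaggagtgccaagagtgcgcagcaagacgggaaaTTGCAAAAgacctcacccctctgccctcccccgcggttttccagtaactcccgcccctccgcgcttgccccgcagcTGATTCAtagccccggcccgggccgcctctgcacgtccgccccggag
No motif was shared between the promoters of IL6 and IL11, and OSMR shared the C/EBP motif with IL6 and the AP-1 motif with IL11. A match is a description of letters and not of a site in use.

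IL6 and IL11, whose proteins each use a receptor of their own and then gp130, fell to about the same share of their si-CTRL level. IL6 (GSHG0027198, hg19 chr7:22766761-22771621) was measured at 926, 555 and 683 normalized counts in si-CTRL replicates 1 to 3 and at 163, 174 and 188 in si-NEK2 replicates 1 to 3. The groups did not overlap, and the si-CTRL libraries were the more scattered, with replicate 1 the highest. The mean went from 721 ± 189 to 175 ± 12.5 normalized counts (SD, n = 3), 24.2% of the si-CTRL mean. The log2 fold change was -2.01 (SE 0.18, 95% interval -2.41 to -1.61, adjusted p = 6.09e-05 in limma with Benjamini-Hochberg adjustment over all tested genes). Without si-CTRL replicate 1 it was -1.81. An unnamed gene (GSHG0028050) shares 480 bases with IL6 and was measured at 27.7 ± 8.70 and 7.71 ± 3.29, so a small share of the reads could be split between both.

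IL11, a cytokine of megakaryocyte growth, fibrosis and bone turnover (GSHG0016133, chr19:55875748-55881831), was measured at 1065, 1263 and 1597 normalized counts in si-CTRL and at 367, 308 and 294 in si-NEK2. No library of one group reached the other, and si-CTRL replicate 3 was the highest. On average IL11 went from 1308 ± 269 to 323 ± 38.8 (SD, n = 3), 24.7% of the si-CTRL mean. Its log2 fold change was -2.0 (SE 0.15, 95% interval -2.35 to -1.65, limma adjusted p = 3.36e-05). Si-CTRL replicate 1, the highest for IL6, was the lowest of its group for IL11.

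LIF, leukemia inhibitory factor, which signals through LIFR and gp130 and keeps mouse embryonic stem cells undifferentiated, had the highest level per kilobase of the 7 ligand transcripts in si-CTRL. It (GSHG0020296, chr22:30636436-30642840) was measured at 16825, 13387 and 14829 normalized counts in si-CTRL and at 4597, 5218 and 5203 in si-NEK2. The groups were far apart relative to their spread, and si-CTRL replicate 1 was again the highest. On average LIF went from 15014 ± 1726 to 5006 ± 355 (SD, n = 3), 33.3% of the si-CTRL mean. The change was -1.58 on the log2 scale (SE 0.09, 95% interval -1.79 to -1.37, limma adjusted p = 9.68e-06) and lay between -1.66 and -1.495 when any 1 library was left out. An unnamed gene that overlaps LIF (GSHG0140188) was measured at 96.9 ± 12.5 in si-CTRL and 102 ± 19.4 in si-NEK2.

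IL24, a cytokine studied for growth arrest and death of tumour cells (GSHG0001397, chr1:207070788-207077484), was measured at 359, 292 and 459 normalized counts in si-CTRL and at 24.6, 34.3 and 14.9 in si-NEK2. These values rest on 287, 302 and 483 reads in si-CTRL and 30, 38 and 14 reads in si-NEK2. The lowest si-CTRL library lay far above the highest si-NEK2 library. Mean IL24 levels went from 370 ± 83.9 to 24.6 ± 9.70 (SD, n = 3), 6.65% of the si-CTRL mean and a log2 fold change of -3.91 (SE 0.29). Since IL24 had been singled out for this difference in earlier results of these libraries, its values are a description, with no test. FCMR, which encodes an Fc receptor for IgM, overlaps IL24 by 852 bases, and the strand setting of the counting is not given in the sources used here. FCMR was measured at 542 ± 57.6 in si-CTRL and 296 ± 18.9 in si-NEK2, a log2 fold change of -0.87, so the listed values of both genes are uncertain where they overlap.

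The 3 colony-stimulating factors did not move together. CSF1 (GSHG0000782, chr1:110453233-110473623), the ligand of the receptor tyrosine kinase CSF1R on macrophages, was measured at 4854, 4151 and 3470 normalized counts in si-CTRL and at 7368, 7335 and 7801 in si-NEK2. Every si-NEK2 library was above every si-CTRL library, and the si-NEK2 libraries were the closer to each other. The mean went from 4158 ± 692 to 7501 ± 260 (SD, n = 3), 180% of the si-CTRL mean. This was the single upward change among the 10 genes, with a log2 fold change of 0.86 (SE 0.11, 95% interval 0.61 to 1.118, limma adjusted p = 0.000423).

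CSF2 (GSHG0024218, chr5:131409485-131411863), the gene with the run of 5 overlapping pentamers shown above, was measured at 232, 164 and 192 normalized counts in si-CTRL and at 12.3, 32.5 and 29.9 in si-NEK2. Reads numbered 186, 169 and 202 in si-CTRL and 15, 36 and 28 in si-NEK2, and the groups did not overlap. The mean went from 196 ± 34.6 to 24.9 ± 11.0 (SD, n = 3), 12.7% of the si-CTRL mean. The log2 fold change of CSF2 was -3.03 (SE 0.34, 95% interval -3.80 to -2.25, limma adjusted p = 0.000215), and without si-NEK2 replicate 1, its lowest library, -2.60. Among all tested genes, 0.187% passed the test at a log2 fold change of -3 or lower. That cut was not a planned threshold, and the share is a description. CSF2 lay close to that cut and missed it under some alternatives, among them a pseudocount of 5 (-2.82) and quantile scaling (-2.86).

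CSF3 (GSHG0012468, chr17:38171614-38174065) had the lowest level per kilobase of the 10 genes. It had 76, 18 and 120 reads in si-CTRL, or 94.99, 17.4 and 114 normalized counts, and 2, 0 and 2 reads in si-NEK2, or 1.64, 0 and 2.13. All si-NEK2 libraries were under 3 reads, and si-CTRL replicate 2 was far below the other si-CTRL libraries. Summed over libraries, 214 reads stood against 4, and with depth taken into account CSF3 was 60.6-fold lower in si-NEK2 (95% exact interval 23.3 to 224, for counting error only). The fitted log2 fold change of CSF3 was -4.86 (SE 0.75, 95% interval -6.56 to -3.17, limma adjusted p = 0.000997). That size depends on the pseudocount of 1 added before the logarithm and on 1 library: it was -6.30 with 0.1, -3.38 with 5, and -5.70 without si-CTRL replicate 2.

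The receptor chains of the family behaved differently from each other. IL6ST (GSHG0024798, chr5:55230938-55290821), which encodes gp130, was measured at 28369, 23313 and 24979 normalized counts in si-CTRL and at 14406, 15484 and 15793 in si-NEK2. The groups were separate, with si-CTRL replicate 1 the highest. Mean IL6ST levels went from 25553 ± 2577 to 15228 ± 728 (SD, n = 3), 59.6% of the si-CTRL mean. The log2 fold change of IL6ST was -0.74 (SE 0.08, 95% interval -0.93 to -0.56, limma adjusted p = 0.000196).

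OSMR (GSHG0023891, chr5:38845960-38935742), which pairs with gp130 as the receptor of oncostatin M, was measured at 8885, 7295 and 7451 normalized counts in si-CTRL and at 8123, 8558 and 8500 in si-NEK2. The groups overlapped because si-CTRL replicate 1 was the highest of all 6 libraries. The mean was 7877 ± 876 in si-CTRL and 8394 ± 236 in si-NEK2 (SD, n = 3). The difference of 0.10 on the log2 scale (SE 0.08, 95% interval -0.09 to 0.29) did not pass the test (limma adjusted p = 0.386), and its interval covers no change of 1.5-fold or more. Without si-CTRL replicate 1 the difference was 0.19 (limma adjusted p = 0.00825, range over all alternatives 0.00825 to 0.915), still under 1.5-fold.

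SOCS3 (GSHG0013774, chr17:76352858-76356160), the inhibitor that STAT3 induces, was measured at 2002, 1951 and 2046 normalized counts in si-CTRL and at 1130, 911 and 1110 in si-NEK2. Its si-CTRL libraries were the most alike of the 10 genes, with a coefficient of variation of 2.38%, and no si-NEK2 library came near them. The mean went from 1999.6 ± 47.6 to 1050.2 ± 121 (SD, n = 3), 52.5% of the si-CTRL mean. The log2 fold change of SOCS3 was -0.93 (SE 0.10, 95% interval -1.15 to -0.72, limma adjusted p = 0.00013).

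**Figure D2:**
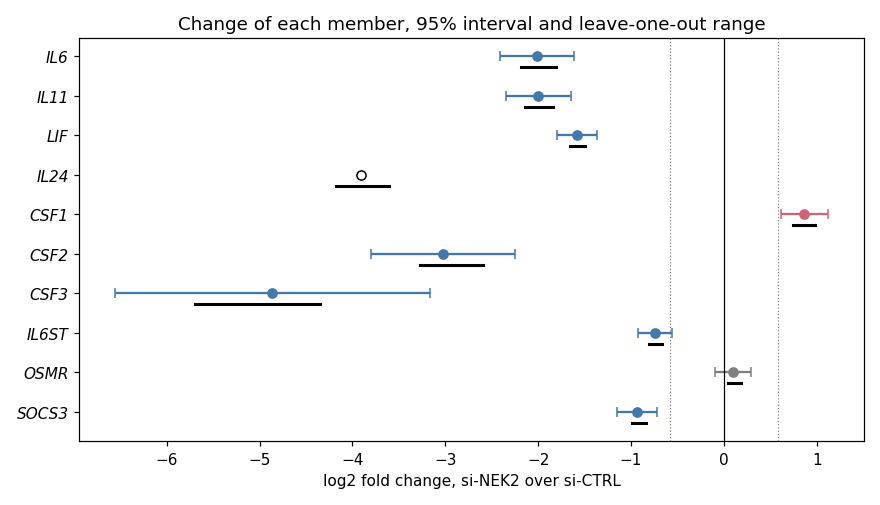
Log2 fold change of si-NEK2 over si-CTRL (horizontal axis) of the 10 genes, with its 95% interval (coloured bar with caps; IL24, a description, is an open circle without one) and, below it, the range when each of the 6 libraries is left out in turn (black bar). Dotted lines mark a 1.5-fold change in either direction. CSF3 has the widest interval shown, -6.56 to -3.17, and among the 9 intervals that of OSMR spans 0.

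To compare levels between genes, normalized counts were divided by exon length in kilobases. In si-CTRL, LIF was first at 3783 ± 435 normalized counts per kilobase (SD, n = 3), followed by IL6ST at 2815 ± 284 and OSMR at 1281 ± 143. CSF1 at 850 ± 142 and SOCS3 at 731 ± 17.4 overlapped, as did IL11 at 552 ± 113 and IL6 at 421 ± 110, and CSF2 at 249.1 ± 43.9 and IL24 at 187 ± 42.4. CSF3 was last, at 42.7 ± 28.95. The order of the upper genes changed in si-NEK2. There IL6ST at 1677 ± 80.2 and CSF1 at 1534 ± 53.2 overlapped at the top, OSMR followed at 1366 ± 38.5, and LIF was the 4th at 1261 ± 89.4. Below them the order was the same in both groups: SOCS3 had 384 ± 44.3 normalized counts per kilobase in si-NEK2, IL11 136 ± 16.4, IL6 102 ± 7.30, CSF2 31.6 ± 13.99, IL24 12.4 ± 4.90 and CSF3 0.711 ± 0.631. CSF2 and IL24 were again the pair of neighbours that overlapped.

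**Figure D3:**
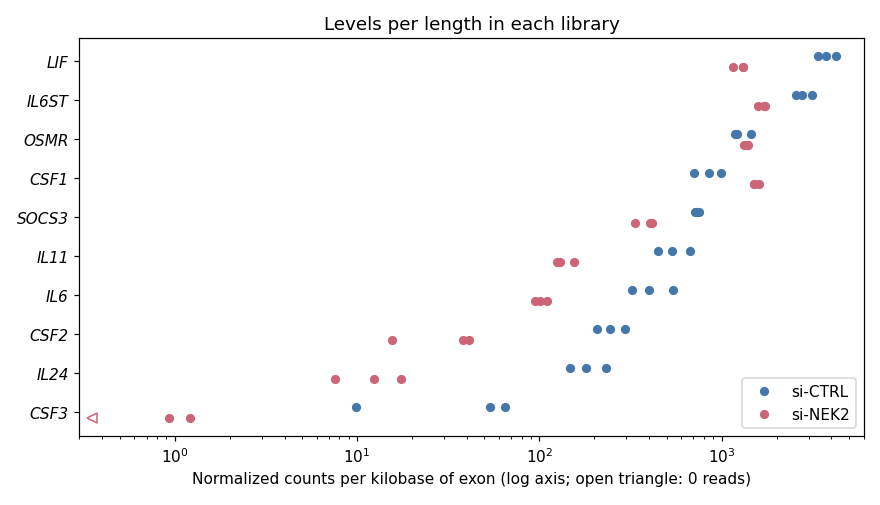
Normalized counts per kilobase of exon (horizontal log axis) of the 10 genes in the 3 si-CTRL (blue) and 3 si-NEK2 (red) libraries, 1 point per library, in the order of the si-CTRL means. An open triangle marks a library with 0 reads. LIF moves from the first place, at 3783 on average in si-CTRL, to below IL6ST, CSF1 and OSMR, at 1261 in si-NEK2.

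The other genes of the pathway were read from 6 lists with 77 genes, of which 75 had an entry and 59 were tested. Of these 59, 12 were regulated downward and 3 upward, and the median log2 fold change was -0.11. The share regulated in either direction among all tested genes was 22.5%, and the lists as a whole were near that background. With equal total scaling, 18 were regulated downward and 1 upward. CSF2RA and KHSRP had no entry under that symbol.

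Receptor chains held the largest decreases of the lists. Of 9 tested, 3 were lower, beside 14.3% of all tested genes, none was higher, beside 8.23%, and the median was -0.27. The entry of 1 of the 9, IL10RB, is shared with IFNAR2, so its value cannot be assigned. IL6R, the receptor that binds IL6 itself, was measured at 164, 116 and 133 normalized counts in si-CTRL and at 38.5, 29.8 and 26.7 in si-NEK2, and fell (log2 fold change -2.09, SE 0.21, limma adjusted p = 0.000121). CSF1R, the receptor of CSF1, was measured at 109, 79.4 and 110 in si-CTRL and at 20.5, 28.9 and 14.9 in si-NEK2 (-2.19, SE 0.27, limma adjusted p = 0.000345). CSF1R therefore fell in the cells in which its ligand CSF1 rose. IL27RA, which pairs with gp130 to bind IL27, was measured at 1988, 2278 and 2191 in si-CTRL and at 560, 547 and 666 in si-NEK2 (-1.87, SE 0.10, limma adjusted p = 6.51e-06). In none of these 3 genes did the groups overlap.

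The receptors specific to IL11 and LIF did not pass the test. IL11RA was measured at 264, 188 and 245 normalized counts in si-CTRL and at 183, 189 and 179 in si-NEK2, a log2 fold change of -0.32 with overlapping groups (limma adjusted p = 0.109). LIFR changed by -0.04, with a 95% interval of -0.30 to 0.22 (limma adjusted p = 0.801). Of the chains through which IL24 signals, IL20RB had a log2 fold change of 0.23 and IL22RA1 of -0.27, neither past the test, and IL20RA averaged 1.67 normalized counts in si-CTRL and 0 in si-NEK2, below the minimum for a test. CSF3R, the receptor of CSF3, was listed at 0 in all 6 libraries, and CSF2RB, the shared chain of the CSF2 receptor, averaged 3.39 in si-CTRL and 0.90 in si-NEK2. OSM, the ligand of OSMR, averaged 4.23 in si-CTRL and 1.80 in si-NEK2, also below the minimum. Cultures thus held CSF2 and CSF3 transcripts with few or no reads of those receptor chains.

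Among 16 further ligands of these families, 6 were tested and none was regulated, with a median of -0.30. The rows of CNTF and IL5 are shared with other genes, ZFP91 and SHROOM1, so their values cannot be assigned. Of 9 tested JAK, STAT and adaptor genes, none was regulated, and their median was 0.08. STAT3 itself, named here after its values were seen, was measured at 9940, 9235 and 8701 normalized counts in si-CTRL and at 6413, 6630 and 6961 in si-NEK2. Its groups did not overlap, but the log2 fold change of -0.48 (limma adjusted p = 0.000852) was under 1.5-fold. With equal total scaling it was -0.61, and STAT3 was then counted as regulated. STAT3 was the 1 gene of this list with all si-NEK2 libraries below all si-CTRL libraries, beside 26.9% of all tested genes. For 3 genes of the list they all lay above, beside 28.2%.

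Inhibitors of the pathway moved in both directions, 2 of 12 tested genes upward, beside 8.23% of all tested genes, and 2 downward, beside 14.3%. SOCS5 (log2 fold change 0.71, SE 0.10, limma adjusted p = 0.000513) and SOCS6 (0.85, SE 0.09, limma adjusted p = 0.000152), relatives of SOCS3 known for restraining receptor tyrosine kinases, rose, in contrast to SOCS3. SOCS5 went from a mean of 7559.7 to 12286 normalized counts and SOCS6 from 1879 to 3369.5. CISH, the STAT5-induced member of the SOCS family, fell from 133 ± 9.25 to 81.8 ± 8.58 normalized counts (-0.70, limma adjusted p = 0.00535), and SH2B3, an adaptor that restrains JAK2, from 1232 ± 58.8 to 627 ± 64.5 (-0.98, limma adjusted p = 0.00011). The call of SOCS5 was lost with equal total scaling and quantile scaling, and that of CISH with quantile scaling.

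Among 11 genes known as STAT3 targets, 4 fell, beside 14.3% of all tested genes, 1 rose, beside 8.23%, and the median log2 fold change was -0.53. CEBPB, a transcription factor of cytokine promoters and the list's largest decrease, was measured at 1302, 1642 and 2105 normalized counts in si-CTRL and at 806, 666 and 567 in si-NEK2 (-1.29, SE 0.18, limma adjusted p = 0.00064). JUNB, a subunit of AP-1, was measured at 1389, 1364 and 1429 in si-CTRL and at 863, 720 and 491 in si-NEK2 (-1.05, SE 0.18, limma adjusted p = 0.00167). The groups of both genes were separate. BCL3, an NF-kB cofactor, fell by 0.97 on the log2 scale (limma adjusted p = 0.00539), and TIMP1, an inhibitor of metalloproteinases, by 0.59 (limma adjusted p = 0.000614). PIM1, a serine/threonine kinase, rose by 0.63 (limma adjusted p = 0.00318). The last 2 were close to the 1.5-fold threshold, and both calls were lost when replicate 1 of either group was left out. That of TIMP1 was also lost with upper quartile scaling and without si-NEK2 replicate 2, and that of PIM1 with equal total scaling.

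Regulators of cytokine mRNA decay were listed whether or not they act through AU-rich elements. Of 12 tested, 3 fell, beside 14.3% of all tested genes, with none higher and a median of -0.19. ZC3H12A, which encodes Regnase-1, an endonuclease that degrades IL6 mRNA, was measured at 999, 818 and 938 normalized counts in si-CTRL and at 414, 404 and 464 in si-NEK2 (log2 fold change -1.10, SE 0.11, limma adjusted p = 9.55e-05). ARID5A, a protein that protects IL6 mRNA from Regnase-1, was measured at 219, 207 and 219 in si-CTRL and at 171, 137 and 70.4 in si-NEK2 (-0.85, SE 0.28, limma adjusted p = 0.0373). Its decrease rested on si-NEK2 replicate 3, without which the value was -0.48 (limma adjusted p = 0.0854). MAPK14, the p38 kinase that stabilises AU-rich mRNAs through MAPKAPK2, fell by 0.61 (limma adjusted p = 0.000593). Its call was lost with upper quartile scaling, without si-CTRL replicate 2 and without si-NEK2 replicate 1. Entries of BCL3 and ZC3H12A also hold a microRNA gene. Of the 15 genes regulated in the 6 lists, 9 were regulated under every alternative tried, and the sign changed for none.

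**Figure D4:**
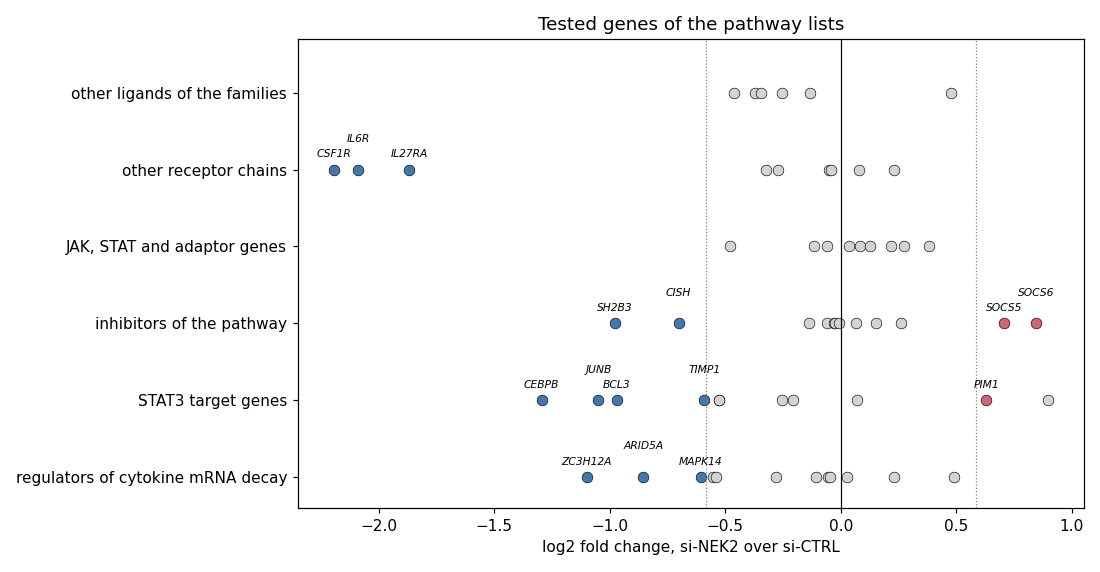
Log2 fold change of si-NEK2 over si-CTRL (horizontal axis) of the 59 tested genes of the 6 lists, 1 point per gene, with regulated genes coloured (blue lower, red higher) and named. Dotted lines mark a 1.5-fold change. CSF1R, IL6R and IL27RA stand apart from the others at -2.19, -2.09 and -1.87.

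Genes next to the 10 on the chromosome were read as well, leaving out those that overlap them, such as FCMR, which is given with IL24. Of the 20 nearest tested genes with a symbol that do not overlap, 1 on each side of every gene, 2 were regulated, beside 22.5% of all tested genes, and 4 were under some alternatives. Their median log2 fold change was 0.19. The regulated neighbours were STEAP1B, 227 kb before IL6, which fell from 48.2 ± 21.7 to 6.10 ± 3.22 normalized counts (-2.81, SE 0.44, limma adjusted p = 0.00111), and C1orf116, after IL24, which rose by 0.71 (limma adjusted p = 0.00392). The other neighbour of IL6, TOMM7, had a log2 fold change of 0.57 and that of IL24, MAPKAPK2, of 0.49, both opposite in sign to the cytokine. Beside CSF3, PSMD3 had 0.05 and MED24 0.06, and beside CSF2, FNIP1 had 0.31 and P4HA2 0.10. Around LIF, MTMR3 had a log2 fold change of 0.41 and TBC1D10A of -0.07, and around IL11, COX6B2 had 0.49 and TMEM238 0.10. CSF1 lies between GSTM3, at 0.42, and AHCYL1, at 0.26, and IL6ST between IL31RA, at 0.08, and MAP3K1, at 0.02. OSMR and SOCS3 had OSMR-AS1 (0.12), RICTOR (0.55), BIRC5 (0.46) and PGS1 (-0.35) beside them. The entries of FNIP1, TBC1D10A and COX6B2 also hold RAPGEF6, GATSL3 and FAM71E2, so their values cannot be assigned to 1 gene. Those of MTMR3, P4HA2 and MED24 also hold a microRNA gene.

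The profile of IL6 over the 6 libraries was compared with those of 12915 genes with a symbol and a mean of at least 50 normalized counts, by the Euclidean distance between centred log2 values. The nearest were NT5E, at a distance of 0.179, which encodes the ecto-enzyme that makes adenosine, UBE2E2, at 0.197, a ubiquitin-conjugating enzyme, TNFAIP3, at 0.218, the NF-kB inhibitor A20, WIPF1, at 0.263, an actin regulator, and F2RL2, at 0.264, a thrombin receptor. TNFAIP3 was measured at 3332, 1952 and 2209 normalized counts in si-CTRL and at 516, 588 and 567 in si-NEK2. As for IL6, by whose profile they were picked, si-CTRL replicate 1 was the highest for all 5 of these genes. Of the 8 other genes of the 10 that met this minimum, LIF was the nearest to IL6, at rank 62, followed by IL11 at 201, SOCS3 at 703, CSF2 at 914, IL6ST at 957, IL24 at 5991, OSMR at 6443 and CSF1 at 12507. The distance also counts differences in the size of a change. IL24 fell further than IL6 (log2 fold change -3.91 against -2.01), so its rank beside OSMR does not mean that IL24 was unchanged. The distances rest on 6 libraries that share their depths and their groups, and they are a description.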

How the data were processed

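Polyadenylated RNA of MDA-MB-231 cells was sequenced from TruSeq stranded libraries, 3 per group, and groups were taken from the labels. The authors named STAR 2.4.0 and hg19 in their processing notes, with DESeq2, SAMtools, Picard and FastQC, and the deposited gene signal is the read count divided by a DESeq2 size factor. The read counter and its strand setting are not given in the sources used here. Whole reads were recovered for 100% of the values (tolerance 0.01). Values were tested as log2(value + 1) with limma 3.58.1 (R 4.3.3, eBayes with trend, no covariate) over the 18717 genes whose normalized counts averaged 10 or more, with Benjamini-Hochberg adjustment, and fold changes are on that scale, which understates those of low genes. Regulated means p of at most 0.05 and a fold of at least 1.5. Alternatives were edgeR 4.0.16 (quasi-likelihood) and DESeq2 1.42.0 on recovered reads, other pseudocounts, filters, scalings and thresholds, a replicate block and leaving out each library. The fit was tested on simulated data. The genes, lists and marker sets were chosen with earlier results of these data known, and neighbours' alternatives after the data were seen. Named were the 10 genes, NEK2, every regulated gene of a list, receptors and ligands of the 10, their nearest tested neighbours and the 5 profiles nearest to IL6. Exon lengths, 3′UTRs and their windows are from GENCODE v29 and promoters from RefSeq, both on GRCh38, while gene coordinates are those of the files on hg19. Replicate libraries differed by more than sampling noise (chi-square per degree of freedom of 9.11 or more), so none was counted as a duplicate.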

Additional observations from a re-analysis of the deposited data

How the results depend on the processing

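Counts and directions were recomputed under 17 alternatives and 2 stricter thresholds. With IL24 counted, the 8 decreases and 1 increase among the 10 genes were found under every alternative except 2. A fold of at least 2 left 6 decreases, and a minimum mean of 50 left 7, because CSF3 was not tested. IL24, a description with no test, is 1 of the decreases in every count of the 10 genes in this section. Without it, the main fit had 7 decreases and 1 increase, beside 14.3% and 8.23% of all tested genes. At a fold of at least 2 it had 5 decreases, beside 6.59%. Leaving out each library in turn gave 8 to 8 decreases and 1 to 1 increases among the 10 genes, 11 to 13 decreases and 2 to 4 increases in the pathway lists, and 2 to 4 regulated neighbours. With a fold of at least 2, there were 0 increases among the 10 genes and 0 increases and 6 decreases in the lists, in place of 3 and 12, since the threshold itself is higher. With equal total scaling, which moved the median of all genes to -0.11, the lists held 1 increase, and OSMR had a log2 fold change of -0.031. OSMR was at -0.013 with quantile scaling. The neighbours regulated, 2 as reported, numbered 1 with a minimum mean of 50 and with equal total scaling, and 4 with upper quartile scaling, with quantile scaling and without si-CTRL replicate 1, and the cause was not tested. Leave-one-out ranges of the log2 fold change were -2.18 to -1.81 for IL6, -2.14 to -1.85 for IL11, -1.66 to -1.495 for LIF, -4.18 to -3.60 for IL24, 0.74 to 0.98 for CSF1, -3.27 to -2.60 for CSF2, -5.70 to -4.36 for CSF3, -0.81 to -0.67 for IL6ST, 0.04 to 0.19 for OSMR and -0.99 to -0.84 for SOCS3.

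Replicate numbers did not pair the libraries: same-numbered libraries had deviations correlated at -0.091, 0.0469 and -0.147. With a replicate block the counts were the same as in the main fit. They were 8 decreases and 1 increase among the 10 genes with IL24 counted, 12 and 3 in the lists and 2 neighbours. No library correlated best with its own number.

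With 3 libraries per group, a gene with few reads is measured with little precision: CSF3 had 4 reads over the si-NEK2 libraries, and 59 of the 75 pathway genes listed reached the minimum for a test.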
